A study of Mus musculus with 24 samples.

Results

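Integrins are heterodimeric receptors of 1 alpha and 1 beta subunit that anchor cells to the extracellular matrix or to other cells. Laminins are cross-shaped trimers of an alpha, a beta and a gamma chain that make up much of every basement membrane, and several integrins are their receptors. In the gum, laminin built with Lamb3 and the integrin Itga6 paired with Itgb4 hold the epithelium to the connective tissue and to the tooth, while in bone the integrin Itgav paired with Itgb3 lets osteoclasts grip the mineral and the integrins that contain Itgb2 let leukocytes leave the blood.

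The genes described here are the protein-coding mouse genes with the symbols of integrin alpha subunits (Itga), integrin beta subunits (Itgb) and laminin chains (Lama, Lamb, Lamc). The GENCODE release M21 annotation holds 37 of them, and 27 are in the deposited tables of 38321 gene IDs: 15 alpha subunits, 4 beta subunits and 8 laminin chains. The other 10, Itga1, Itga2, Itga5, Itgb4, Itgb5, Itgb7, Itgb8, Lama1, Lama3 and Lamb1, were not analysed here. Their usual partners among the 27 (Itga6 for Itgb4, Itgav for Itgb5 and Itgb8, Itga4 for Itgb7, Lamb3 for Lama3) are therefore described without them.

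Messenger RNA was sequenced from 2 tissues of wild-type female C57BL/6J mice that were 11 weeks old at the start, every group with ligature-induced periodontitis. On day 0 the mice had a sham operation (Sham) or both ovaries removed (OVX), from day 4 they received daily corn oil (Sham and OVX) or estradiol benzoate under the skin at 1 µg per day in 100 µL of corn oil (OVX with estradiol, OVXE2), on day 7 a silk ligature was tied around the maxillary second molars on both sides, and on day 14 the tissues were taken. Gingiva is the gum around the maxillary molars, and the dentoalveolar complex (DAC) is the alveolar bone with its teeth after soft tissue was cleaned off. There are 4 libraries in each of the 6 groups, and no group without a ligature. The labels call these libraries biological replicates without tying a library to an animal, or the 2 tissues to the same animals, so the p-values measure the spread between these libraries.

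The gingiva libraries held 18598422 to 26001342 gene counts and the DAC libraries 14771830 to 29248358, of which the 27 genes took 0.176% to 0.290% of them in gingiva and 0.337% to 0.474% in DAC. Marker genes followed the tissue labels: the 3 epithelial markers counted (of 9 on the list; Krt14 is one of them) summed to 6.65% to 8.96% of counts in gingiva and to 0.0882% to 0.555% in DAC, and the 6 osteoblast and osteocyte markers counted (of 8) to 0.507% to 1.05% in DAC and at most 0.0149% in gingiva. One library stood apart: nasal gland markers took 13.8% of the counts of DAC OVX replicate 1, against 0.265% to 2.47% in the other DAC libraries. In whole tissue, fewer cells of a type and less RNA per cell cannot be told apart.

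Levels are compared between genes per length, in RPKM, counts scaled to library size and to the length of a gene's merged exons. In DAC, Itgb1, the beta subunit shared by most matrix-binding integrins, stood above every other gene of the set, with 282 ± 20.04 RPKM (SD, n = 12 libraries) and a range of 256 to 324 that no other gene reached. The leukocyte subunit Itgb2 (51.9 ± 8.87) and the osteoclast and platelet subunit Itgb3 (51.6 ± 12.6) came next and overlapped each other, followed by Lamc1 (34.3 ± 5.41), Lamb2 (32.0 ± 3.32), the collagen receptor Itga11 (29.0 ± 2.43) and Itgav (21.9 ± 4.11). From the second place to the last, each gene's range in DAC overlapped that of the next, down to Itgae at 0.275 ± 0.0973 RPKM.

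In gingiva Itgb1 again led, with 98.6 ± 13.3 RPKM, but its range of 72.6 to 118 overlapped that of Itga6, the laminin-binding subunit of hemidesmosomes, at 67.8 ± 6.63. Lamb3 stood at 37.6 ± 5.96, and its range (27.7 to 50.3) lay clear of that of Itgav (18.7 ± 1.45). Itga3, another laminin-binding subunit, stood at 18.3 ± 1.47, Lamc1 at 16.2 ± 2.63 and Lamb2 at 13.4 ± 0.915, and Itgb2 followed at 7.28 ± 1.54. Itga6 made up 52.6% of the summed RPKM of the 15 alpha subunits in gingiva and 14.1% in DAC. Lamb3 made up 29.8% of the summed RPKM of the laminin chains in gingiva and 9.53% in DAC, where Lamc1 and Lamb2 led with 27.5% and 25.6%. The plot of levels shows both orders.

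**Figure D1:**
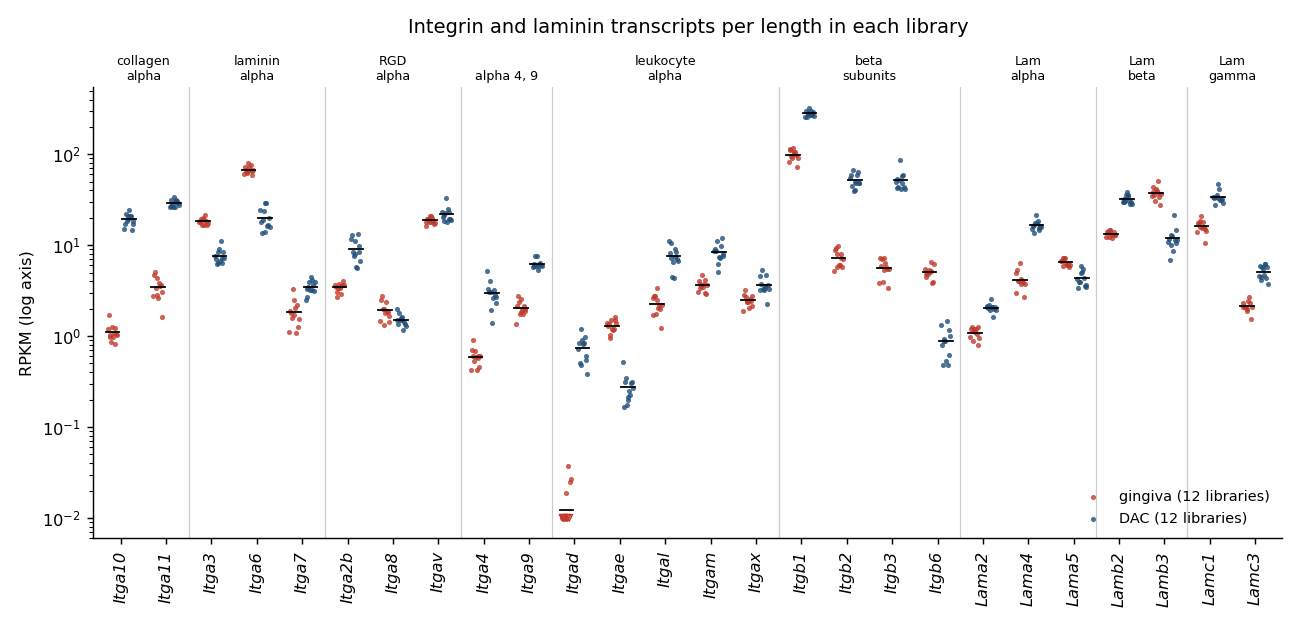
Levels of 26 genes in the 12 gingiva and 12 DAC libraries, in RPKM on a log axis. Each point is 1 library and each bar the mean of a tissue; values of 0.01 or less are drawn as open triangles at 0.01, which are Itgad in gingiva. Itgb1 lies at the top in both tissues (98.6 RPKM in gingiva and 282 in DAC), and Itga6 and Lamb3 are also high in gingiva.

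Exons of Itgam overlap those of a read-through gene on the same strand over 68.7% of their length (Gm49368, with 0 to 7 counts in any library), and exons of Itga10 over 33.5% (Gm42957, also 0 to 7 counts). Reads in shared exons are not assigned to a single gene in such tables, so both levels are low estimates: over the unshared exons, Itgam stood at 11.5 ± 1.71 RPKM in gingiva and 26.8 ± 6.20 in DAC, and Itga10 at 1.66 ± 0.357 and 28.9 ± 4.41. The order and the shares of summed RPKM given above use the full exon length. Over the unshared exons, the DAC means of both genes lie above that of Itgav (21.9), and that of Itga10 lies close to Itga11 (29.0). Comparisons of 1 of these genes between groups use the same exons in every library.

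The first comparison is between the tissues, within a treatment group. Of the 27 genes, 25 differed between DAC and gingiva in Sham, 18 higher and 7 lower in DAC (edgeR quasi-likelihood test, Benjamini-Hochberg adjusted p under 0.05 over 14209 genes), against 75.1% of all genes tested (39.7% higher and 35.4% lower). The median log2 difference of the 27 genes was 1.19 and that of all genes 0.07. In OVX 25 genes passed, 18 higher and 7 lower, against 72.4% of all genes (38.1% higher, 34.2% lower), and in OVXE2 26 genes, 19 higher and 7 lower, against 72.1% (38.0% and 34.1%). The sign of the difference was the same in the 3 treatment groups for each of the 27 genes, and apart from Itgad no log2 difference varied by more than 0.80 among them. With so many genes differing between a gum and a bone, the counts of the set are read beside those shares only; the directions and sizes by role follow, as CPM (counts scaled to library size over both tissues).

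Both collagen-binding alpha subunits were far higher in DAC. Itga10, a receptor of cartilage and bone collagen, measured 109.7, 77.0, 95.5 and 88.4 CPM in the 4 Sham DAC libraries and 4.20, 6.29, 5.52 and 5.29 in the Sham gingiva libraries. Every DAC library was far above every gingiva library, and the fitted difference was 17.4-fold (log2 4.12 ± 0.18 SE, edgeR adjusted p = 7.07e-14). Itga11, the fibrillar-collagen receptor of fibroblasts and osteoblasts, measured 161, 157, 149 and 143 CPM in DAC and 18.2, 18.8, 8.36 and 15.7 in gingiva (log2 3.32 ± 0.22). Gingiva Sham replicate 3 was the lowest for Itga11, and the tissues did not overlap.

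Among the beta subunits, Itgb3 measured 338, 348, 260 and 242 CPM in Sham DAC and 34.3, 32.0, 20.2 and 32.0 in Sham gingiva (log2 3.32 ± 0.25, edgeR adjusted p = 1.82e-10). Itgb2 measured 181, 194, 148 and 146 CPM in DAC and 22.3, 24.3, 17.7 and 21.3 in gingiva (log2 2.97 ± 0.19). For both, each DAC library exceeded each gingiva library several times over. Itgb1 was 3.03-fold higher in DAC, at 1132 ± 55.8 against 374 ± 56.7 CPM (SD, n = 4). Itgb6, the epithelial partner of Itgav that activates latent TGF-beta, went the other way, with 3.46, 4.38, 8.38 and 7.07 CPM in DAC and 46.0, 27.2, 27.7 and 44.0 in gingiva. Every gingiva library was above every DAC library, and Itgb6 was 6.21-fold lower in DAC (log2 -2.64 ± 0.31, edgeR adjusted p = 1.29e-07). Its usual partner Itgav did not differ past the test in Sham, with 207, 248.5, 206 and 202 CPM in DAC and 213, 198, 186 and 188 in gingiva (log2 0.14 ± 0.13, edgeR adjusted p = 0.338). These ranges overlapped.

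The leukocyte alpha subunits that pair with Itgb2 were higher in DAC. Itgal, the T cell and neutrophil subunit, measured 59.4, 54.7, 46.4 and 44.4 CPM in DAC and 14.3, 12.96, 8.03 and 14.5 in gingiva (log2 2.04 ± 0.24), and Itgam, the myeloid subunit, was 2.74-fold higher. Itgad was counted 115, 41, 60 and 39 times in the Sham DAC libraries and 4, 1, 2 and 3 times in Sham gingiva. Its counts were 60 to 169 and 62 to 112 in the OVX and OVXE2 DAC libraries and at most 2 in the gingiva libraries of those groups, so no fold is given. Itgax, the dendritic cell subunit, differed least, by 0.50 ± 0.19 on the log2 scale (edgeR adjusted p = 0.0187), and overlapped between the tissues. That call was lost without gingiva Sham replicate 4 (adjusted p = 0.0597) or DAC Sham replicate 1 (adjusted p = 0.119). Itgae, which pairs with Itgb7 and holds T cells in epithelium by binding E-cadherin, was lower in DAC, with 1.03, 1.40, 1.45 and 1.23 CPM against 5.45, 7.42, 6.86 and 6.38 (log2 -2.36 ± 0.24). Each gingiva library was above each DAC library for Itgae.

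Itga4 and Itga9 are related alpha subunits that pair with Itgb1. Itga4, the VCAM-1 receptor subunit of lymphocytes and progenitors, measured 45.3, 39.5, 37.9 and 32.1 CPM in Sham DAC and 8.11, 8.51, 6.36 and 8.36 in Sham gingiva (log2 2.30 ± 0.24). Itga9 was 3.17-fold higher in DAC. Of the subunits that recognise the RGD sequence of matrix proteins, the platelet subunit Itga2b was 2.55-fold higher in DAC, and Itga8 did not pass, with 8.63, 10.6, 10.1 and 9.57 CPM in DAC and 13.8, 13.6, 10.54 and 12.3 in gingiva (log2 -0.37 ± 0.18, edgeR adjusted p = 0.0616). Itga8 passed edgeR's test without gingiva Sham replicate 3 (adjusted p = 0.0383) and with only the groups compared in the fit (adjusted p = 0.0235).

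The laminin-binding alpha subunits were split. Itga6 measured 146, 149, 179 and 145 CPM in Sham DAC and 696, 589, 528 and 601 in Sham gingiva, 3.90-fold lower in DAC (log2 -1.96 ± 0.19), and Itga3 was 2.55-fold lower. The muscle subunit Itga7 was higher in DAC, at 28.0 ± 3.01 against 12.3 ± 4.05 CPM. The laminin chains split too. The epithelial chain Lamb3 (246 ± 62.8 CPM in gingiva, 79.2 ± 11.8 in DAC) and Lama5, a chain of epithelial and vascular basement membranes (68.6 ± 2.16 and 43.0 ± 4.68), were lower in DAC. Lama2, Lama4, Lamb2, Lamc1 and Lamc3 were higher in DAC. Lama4, a vascular chain, measured 178, 187, 196 and 193 CPM in DAC and 48.7, 47.2, 32.3 and 45.4 in gingiva (log2 2.12 ± 0.17), and Lamb2, Lamc1, Lamc3 and Lama2 were 1.87- to 2.29-fold higher.

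**Figure D2:**
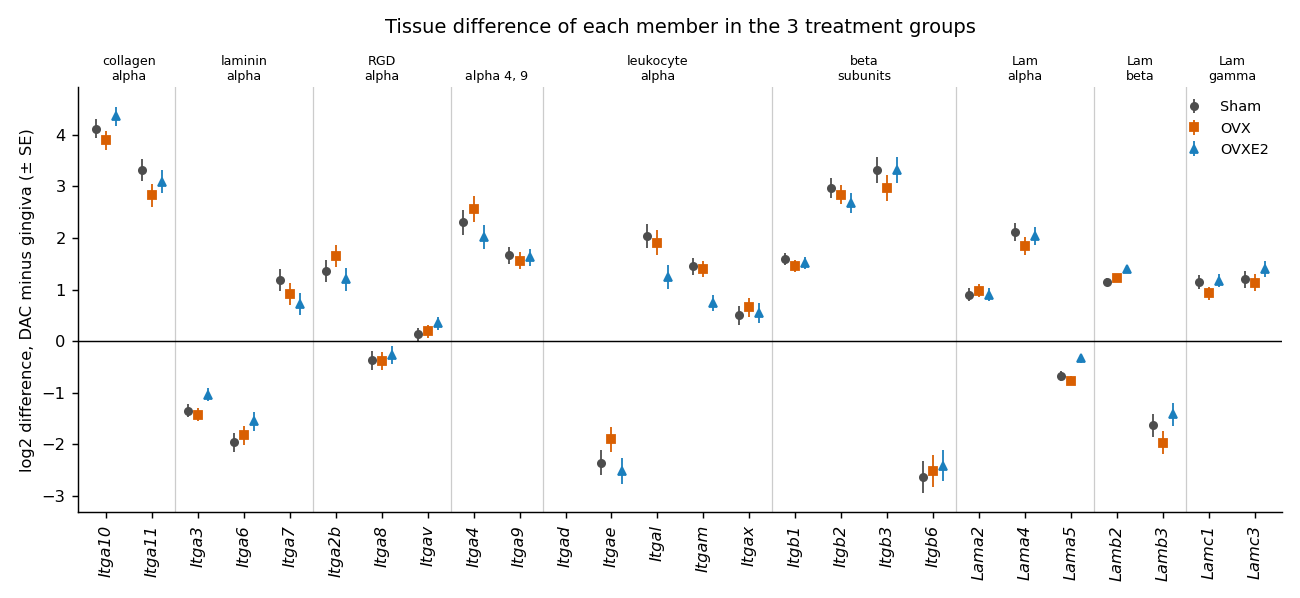
Log2 difference of DAC against gingiva for 25 genes in each treatment group, with the standard error of the fit; Itgad, near 0 counts in gingiva, is left out. Positive values are higher in DAC; in Sham, Itga10 lies highest (4.12) and Itgb6 lowest (-2.64), and the sign is the same in the 3 treatment groups for each gene. Among them the value ranges from 1.23 to 2.04 for Itgal and from 0.74 to 1.45 for Itgam.

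The endothelial markers counted (6 of 8 on the list) summed to 0.0521% to 0.0920% of counts in DAC and 0.0138% to 0.0323% in gingiva, and the 8 markers of immature marrow neutrophils to 0.0994% to 0.411% and 0.00526% to 0.0276%. The tissue differences of Lama4, Itgb2, Itgal, Itgam, Itgad and Itgax have the same direction as these sums. Those of Itga6, Lamb3, Itgb6 and Itgae have the direction of the epithelial sum given above. For Itgae, a subunit of T cells, the T and NK cell sum goes the other way. That sum was 0.0029% to 0.0067% of counts in DAC and 0.0013% to 0.0025% in gingiva. Lama5, a chain of both kinds of basement membrane, was lower in DAC (log2 -0.67), opposite to the endothelial sum and on the side of the epithelial sum. The part of cell makeup in them was not tested, and tissue and dissection cannot be told apart.

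Promoters are shown for 4 genes that differed in opposite directions between the tissues, chosen after their values were seen: Lamb3 and Itgb6, higher in gingiva, and Itga10 and Itgam, higher in DAC. RefSeq (GRCm38.p6) gave a start site for 16 of the 27 genes, and each sequence is the 250 bases before the start, 5′ to 3′ on the gene's strand. Capitals mark matches, on either strand, to AP-1 (TGANTCA), the PU.1 core (GAGGAA), the RUNX core (TGTGGT), the palindromic estrogen response element (GGTCANNNTGACC) and the GC box (GGGCGG); no matches overlapped in the 16 windows. The Lamb3 window is chr1:193301744-193301993 (plus strand), that of Itgb6 chr2:60722604-60722853 (minus), that of Itga10 chr3:96645334-96645583 (plus) and that of Itgam chr7:128062390-128062639 (plus).
Lamb3: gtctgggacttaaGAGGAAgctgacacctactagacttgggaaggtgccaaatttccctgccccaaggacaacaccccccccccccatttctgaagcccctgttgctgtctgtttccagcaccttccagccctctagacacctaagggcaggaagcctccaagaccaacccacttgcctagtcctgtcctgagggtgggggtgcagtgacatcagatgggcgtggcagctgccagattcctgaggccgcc
Itgb6: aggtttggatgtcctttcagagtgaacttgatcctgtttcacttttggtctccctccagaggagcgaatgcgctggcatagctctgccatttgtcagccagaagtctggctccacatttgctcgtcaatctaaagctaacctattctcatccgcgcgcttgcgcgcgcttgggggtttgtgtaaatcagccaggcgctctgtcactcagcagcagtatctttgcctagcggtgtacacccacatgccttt
Itga10: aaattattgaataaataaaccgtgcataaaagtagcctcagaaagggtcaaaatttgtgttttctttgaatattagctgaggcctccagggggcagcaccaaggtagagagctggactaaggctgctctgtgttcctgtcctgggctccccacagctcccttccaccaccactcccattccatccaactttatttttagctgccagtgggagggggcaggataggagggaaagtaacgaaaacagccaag
Itgam: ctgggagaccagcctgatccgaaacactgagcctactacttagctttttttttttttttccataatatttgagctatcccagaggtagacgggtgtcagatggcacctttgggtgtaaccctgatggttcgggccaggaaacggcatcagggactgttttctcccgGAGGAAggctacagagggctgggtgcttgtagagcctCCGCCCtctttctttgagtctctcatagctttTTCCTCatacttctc
Lamb3 holds 1 PU.1 core match, Itgam 2 and a GC box, and Itgb6 and Itga10 hold no match to the 5 motifs. Over the 16 windows, 9 hold a PU.1 core, 5 a GC box, 1 a RUNX core (Itga4), 1 an AP-1 motif (Itgax) and 0 an estrogen response element. Of 32536 distinct RefSeq windows of this length, 23.4% hold a PU.1 core, 33.0% a GC box, 14.0% a RUNX core, 6.73% an AP-1 motif and 0.0645% an estrogen response element.

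Genes that work with integrins and laminins were also compared between the tissues in Sham, list by list. In that comparison edgeR called 39.7% of all genes higher in DAC and 35.4% lower, and the counts below are read beside those shares only. Of 19 integrin ligands other than laminins that were tested, 18 were higher and 1 lower in Sham DAC, among them the bone matrix protein Spp1 (osteopontin, log2 5.00 ± 0.29) and Postn (periostin, a protein of the periodontal ligament, 4.23 ± 0.26). Of 20 activators and adaptors, 15 were higher and 3 lower, with Ilk at 1.96 ± 0.10 and the kindlin Fermt2 at 2.16 ± 0.12. Of 16 other basement membrane genes, 8 were higher and 6 lower: the perlecan gene Hspg2 was higher (2.00 ± 0.15), while the paired collagen IV chains Col4a5 (-2.65 ± 0.15) and Col4a6 (-4.85 ± 0.35) were lower. Of the 3 hemidesmosome genes tested, Krt14 (-4.07 ± 0.33) and Dst (-1.55 ± 0.17) were lower and Cd151 (0.31 ± 0.10) higher. Of 6 other laminin receptors and binding proteins, 4 were higher and 1 lower, the last being Bcam, which binds Lama5 (-1.12 ± 0.12). All these calls are edgeR's at an adjusted p under 0.05; that of Cd151 was lost without the low-count filter (adjusted p = 0.0776).

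The treatment comparisons ask what loss of the ovaries, and estradiol after it, did in each inflamed tissue. OVX and OVXE2 against Sham share the Sham libraries, and the OVXE2 comparisons share the OVXE2 libraries, so their values stand side by side and are not independent. In gingiva, none of the 26 genes tested (Itgad was below the count filter) passed in any of the 3 comparisons, where edgeR called 0.0% of all 12680 genes. At an unadjusted p under 0.05 there were 0, 1 and 2 of the 26 genes for OVX against Sham, OVXE2 against OVX and OVXE2 against Sham, against 12.1%, 13.9% and 7.41% of all genes, and DESeq2 called 0 of the set in each, against 0.0835%, 0.431% and 0.0308%. The median log2 change of the 26 genes was 0.09, -0.00 and 0.07, and no gene's groups were free of overlap, against 5.74%, 6.08% and 4.91% of all genes.

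The gingival gene with the largest change was Itga7. It measured 8.42, 17.2, 9.65 and 11.8 CPM in Sham, 8.46, 14.9, 13.8 and 12.2 in OVX and 25.3, 19.4, 13.01 and 15.9 in OVXE2. OVXE2 replicates 1 and 2 were above every other gingiva library, and replicates 3 and 4 lay among them. The log2 change was 0.58 ± 0.26 against OVX (edgeR adjusted p = 0.347) and 0.64 ± 0.26 against Sham (adjusted p = 0.650). Skeletal muscle markers summed to 0.154% to 0.491% of counts in OVXE2 gingiva, 0.0595% to 0.229% in OVX and 0.0287% to 0.180% in Sham, and were highest in OVXE2 replicates 1 (0.491%) and 4 (0.483%); their part in the Itga7 values was not tested. The next smallest p-values belonged to Itga2b (OVX against Sham, log2 -0.22 ± 0.10, adjusted p = 0.419), Lamc1 (OVXE2 against Sham, 0.32 ± 0.14, adjusted p = 0.661) and Lama5 (OVXE2 against Sham, 0.16 ± 0.08, adjusted p = 0.685). Itga6, the epithelial anchor, averaged 578 ± 67.6, 571 ± 44.0 and 605 ± 70.6 CPM in Sham, OVX and OVXE2 gingiva.

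In DAC, OVX against Sham gave 0 of 27 genes past edgeR's test, against 0.0% of all 13617 genes, 0 by DESeq2 (0.0289% of all genes), and 1 gene (Itga8) at an unadjusted p under 0.05, against 3.21% of all genes. The median log2 change was 0.01. Among the smallest p-values were those of Itga8 (0.30 ± 0.12) and Itga4 (0.46 ± 0.22), both with an edgeR adjusted p of 0.874. Itga8 measured 9.17, 11.2, 10.8 and 10.2 CPM in Sham and 15.1, 11.5, 10.7 and 13.6 in OVX, and these ranges overlapped.

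The treatment comparison with a call was estradiol after ovariectomy, in DAC. In OVXE2 against OVX edgeR called 1 of the 27 genes, Lama5, higher, against 2.13% of all genes (0.676% higher and 1.45% lower). At an unadjusted p under 0.05 there were 11 genes of 27, against 10% of all genes. The median log2 change of the 27 genes was 0.13 (17 higher, 10 lower) and that of all genes 0.02, with 55.1% of all genes higher. By role, the laminin chains Lama2, Lama4, Lama5, Lamb2, Lamb3, Lamc1 and Lamc3 had values above 0 (0.03 to 0.49), as did the 3 laminin-binding subunits Itga3, Itga6 and Itga7 (0.34 to 0.39), and the 5 leukocyte alpha subunits had values below 0 (-0.10 to -0.72). The log2 changes against OVX and against Sham are plotted for both tissues.

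**Figure D3:**
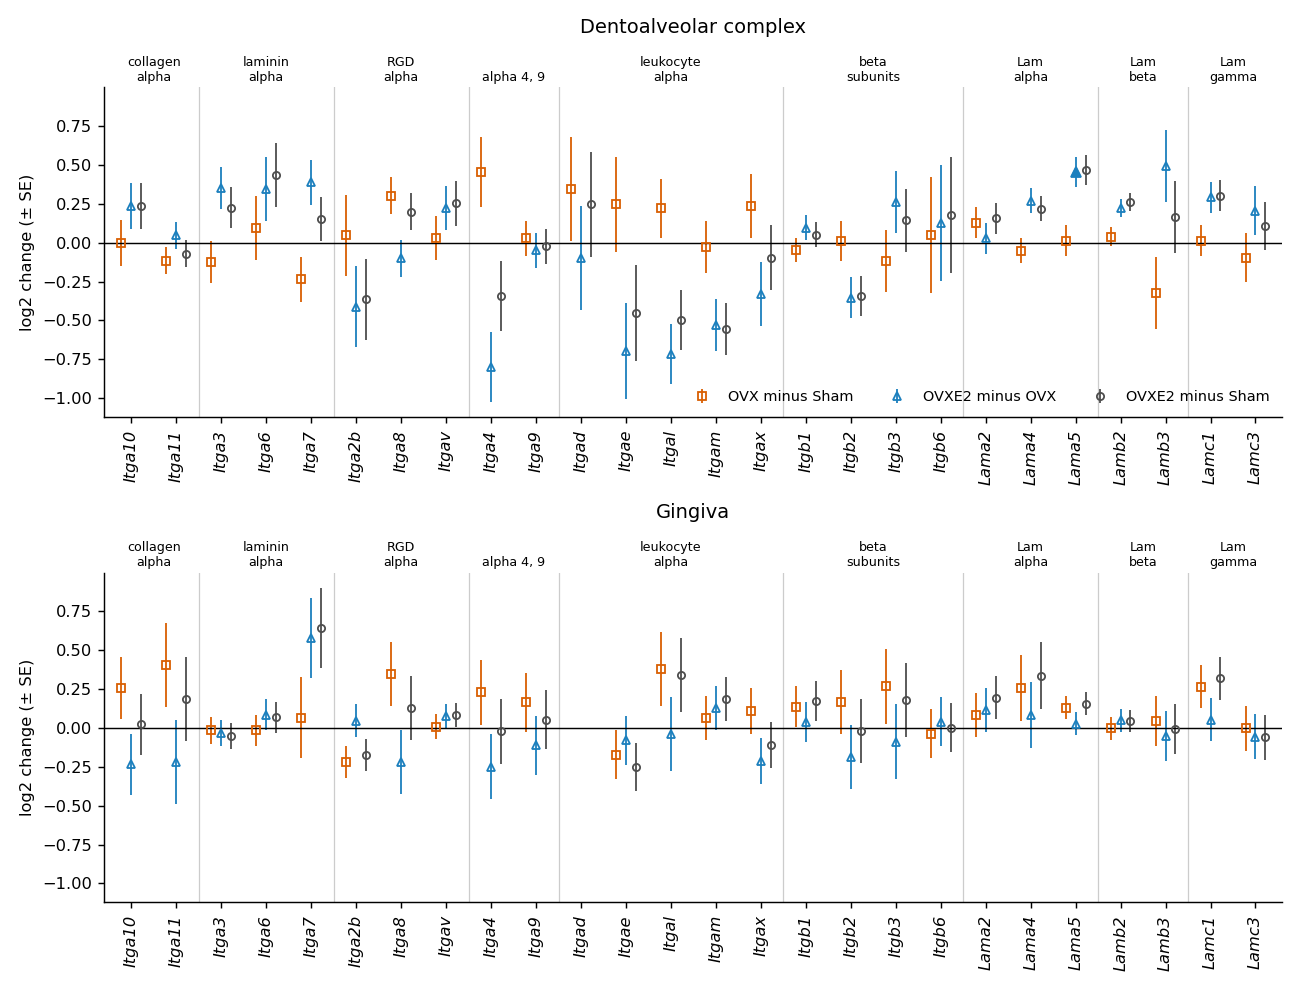
Log2 change (y axis) with standard error of 26 genes (x axis) in the treatment comparisons of gingiva and DAC, grouped by role. A filled symbol is past the edgeR test, which is Lama5 in DAC for OVXE2 against OVX (0.45); Itgad was not tested in gingiva. In OVXE2 minus OVX of DAC, the laminin chains shown lie above 0 and the 5 leukocyte alpha subunits below it.

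Lama5 (chr2:180176373-180225859, minus strand, GRCm38) encodes the alpha chain of the main laminins of mature vessels and of several epithelia. In DAC it measured 53.0, 42.8, 44.9 and 42.3 CPM in Sham, 50.1, 39.5, 48.0 and 46.9 in OVX and 57.5, 69.2, 62.5 and 63.7 in OVXE2. Every OVXE2 library was above every Sham and OVX library, while Sham (45.7 ± 4.95) and OVX (46.1 ± 4.63) overlapped. The log2 change was 0.45 ± 0.10 against OVX (edgeR adjusted p = 0.0370) and 0.47 ± 0.10 against Sham, which did not pass (adjusted p = 0.0517). The change kept its direction in each of 20 alternative analyses (log2 0.39 to 0.50), but the call against OVX was lost in 14 of them. It was lost without Sham replicate 3 (adjusted p = 0.0654), OVX replicate 2 (0.0892), 3 (0.0806) or 4 (0.0937), or OVXE2 replicate 1 (0.0514), 2 (0.0991), 3 (0.0674) or 4 (0.104), and the change against Sham passed without Sham replicate 1 (0.0425) or OVX replicate 2 (0.0437). DESeq2 gave adjusted p-values of 0.000905 and 0.000906 for the changes against OVX and Sham.

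The Lama5 promoter is shown since Lama5 is the gene that passed a treatment test. The window is chr2:180225860-180226109 (minus strand, GRCm38.p6), with capitals for the motifs named above.
Lama5: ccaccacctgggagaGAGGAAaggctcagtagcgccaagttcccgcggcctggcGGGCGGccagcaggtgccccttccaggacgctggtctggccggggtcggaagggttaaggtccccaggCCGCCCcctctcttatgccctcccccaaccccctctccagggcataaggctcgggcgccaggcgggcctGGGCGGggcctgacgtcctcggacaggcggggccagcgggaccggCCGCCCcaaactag
It holds 4 GC box matches and 1 PU.1 core match, and no match to the palindromic estrogen response element. No match says only that these letters are not in this window.

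The other laminin chains described here did not pass edgeR's test. Lamb2, a chain of vascular and neuromuscular laminins, measured 197, 181, 196 and 184 CPM in Sham DAC, 188, 202, 197 and 192 in OVX and 218, 243, 229 and 220 in OVXE2. All 4 OVXE2 libraries were above the other 8, and the log2 change was 0.22 ± 0.06 against OVX (adjusted p = 0.0929) and 0.26 ± 0.06 against Sham (adjusted p = 0.0726). Lama4 measured 189, 197, 210 and 207 CPM in Sham, 185, 203, 178 and 209 in OVX and 214, 264, 233 and 224 in OVXE2 (0.27 ± 0.08 against OVX, adjusted p = 0.155). Its OVXE2 libraries were also above the other 8. Lamc1, the gamma chain of most laminins, measured 279, 275, 286 and 258 CPM in Sham, 285, 279.5, 248.8 and 293 in OVX and 302, 405, 298 and 349 in OVXE2 (0.29 ± 0.10, adjusted p = 0.240). Here too no OVXE2 library fell within the other groups, and OVXE2 replicate 2 was the highest. Lamb3 (86.8, 86.3, 61.7 and 144 CPM in OVXE2) had a larger fitted change against OVX, 0.49 ± 0.23, but overlapped the OVX libraries, and was highest in OVXE2 replicate 4.

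In OVXE2 against OVX, the 5 leukocyte alpha subunits, Itgb2 and Itga4 had values below 0, and none passed edgeR's test. Itgal measured 63.2, 57.7, 49.7 and 47.4 CPM in Sham DAC, 75.5, 55.7, 50.7 and 72.0 in OVX and 29.4, 44.2, 30.7 and 50.2 in OVXE2. The highest OVXE2 library lay just under the lowest OVX library, and the log2 change was -0.72 ± 0.19 (adjusted p = 0.102). Itga4 measured 48.1, 41.7, 40.6 and 34.3 CPM in Sham, 74.3, 47.3, 45.7 and 58.5 in OVX and 27.6, 44.0, 20.9 and 37.1 in OVXE2 (-0.80 ± 0.23, adjusted p = 0.124). Itga4 in OVXE2 did not overlap OVX and did overlap Sham. Itgam measured 52.9, 63.1, 42.6 and 40.6 CPM in Sham, 44.4, 46.6, 46.6 and 58.1 in OVX and 25.9, 32.1, 40.8 and 36.9 in OVXE2 (-0.53 ± 0.17, adjusted p = 0.190). It too was free of overlap with OVX. Their beta subunit Itgb2 measured 193, 205, 159 and 156 CPM in Sham, 174, 186, 146 and 211 in OVX and 121, 154, 136 and 150 in OVXE2 (-0.35 ± 0.13, adjusted p = 0.293), below every Sham library and overlapping OVX. Itgae (-0.70 ± 0.31) and Itgax (-0.33 ± 0.21) had values on the same side, and Itgad (-0.10 ± 0.33) stood close to 0 against OVX and above 0 against Sham (0.25 ± 0.34).

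DESeq2, run on the same counts as an alternative, called 4 of the 27 genes in OVXE2 against OVX. Lama5 and Lamb2 were higher (Lamb2 adjusted p = 0.00255), and Itgal (0.0140) and Itga4 (0.0195) lower, against 2.45% of all genes. That share is over 24198 genes, without the low-count filter that left edgeR 13617, so the 2 shares are not alike. In all, 7 of the 27 genes did not overlap between OVXE2 and OVX in DAC, 4 higher (Lama4, Lama5, Lamb2, Lamc1) and 3 lower (Itga4, Itgal, Itgam), against 6.73% of all genes (3.22% higher, 3.51% lower). Against Sham, edgeR called 0 of 27, against 1.05% of all genes, 7 genes were at an unadjusted p under 0.05 (8.77% of all genes were), and DESeq2 called 2, Lama5 and Lamb2, against 1.38%. Groups were free of overlap with Sham for 6 genes, the same 4 laminin chains and Itga8 higher and Itgb2 lower, against 5.41% of all genes (2.63% higher, 2.78% lower). Both comparisons use the same OVXE2 libraries.

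**Figure D4:**
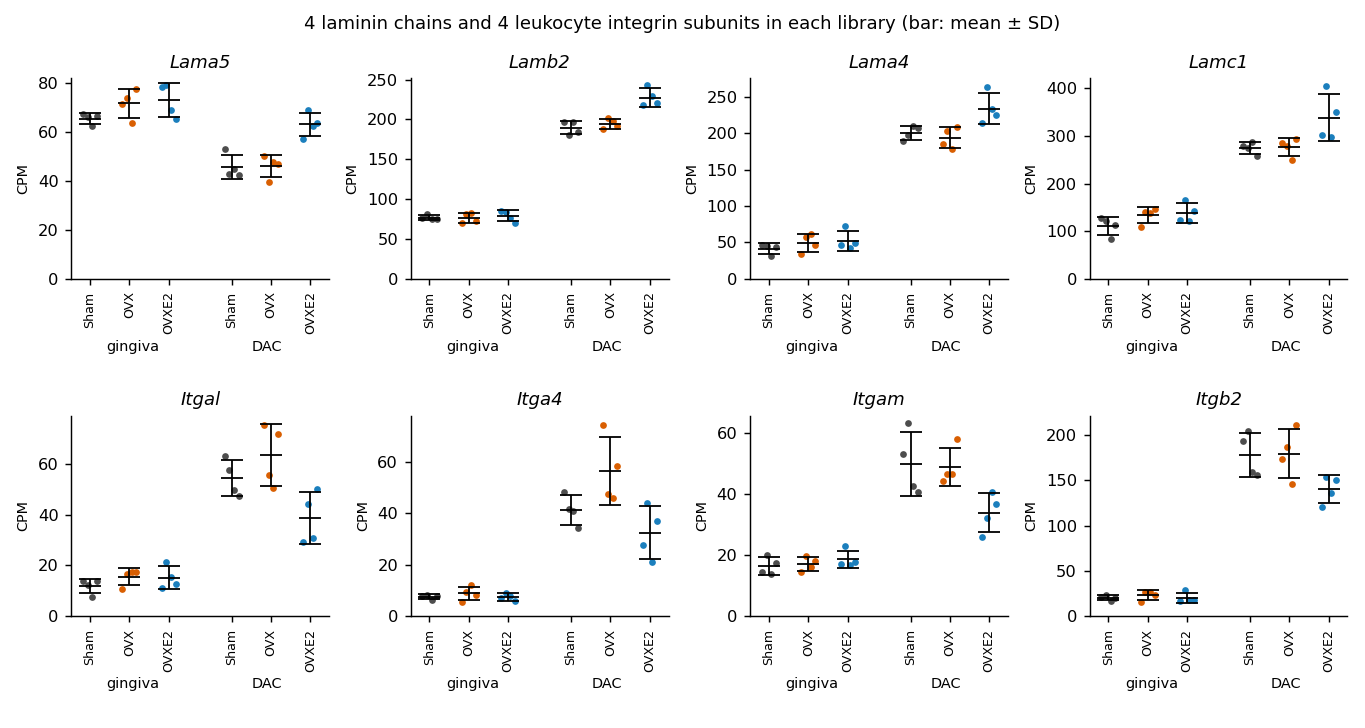
Levels in CPM (scaled within each tissue) of 4 laminin chains (Lama5, Lamb2, Lama4, Lamc1) and 4 leukocyte integrin subunits (Itgal, Itga4, Itgam, Itgb2) in each library, with the group mean and SD (n = 4). In DAC the 4 laminin chains are highest in the OVXE2 libraries. Itgal, Itga4 and Itgam in OVXE2 lie below OVX and overlap Sham, and Itgb2 lies below Sham and overlaps OVX. The gingiva groups overlap.

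In DAC, OVXE2 and OVX overlapped for the genes that follow. Itga3 (0.35 ± 0.13 against OVX), Itga7 (0.39 ± 0.14) and Itga6 (0.34 ± 0.21) had values above 0 with edgeR adjusted p-values of 0.326, 0.297 and 0.723. Itgav and Itgb3, the osteoclast pair, were high in 1 estradiol library: OVXE2 replicate 2 measured 363 CPM for Itgav and 524 for Itgb3, and the other 3 OVXE2 libraries lay at 213 to 274 and 266 to 315. Their changes against OVX were 0.22 ± 0.14 and 0.26 ± 0.20. Itga10, Itga11, Itga9, Itga8, Itgb1, Itgb6, Lama2 and Lamc3 had log2 values within 0.24 of 0, and the platelet subunit Itga2b was at -0.41 ± 0.26.

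Some marker sums in DAC also differed between the groups, and others did not. Endothelial markers summed to 0.0797% to 0.0920% of counts in OVXE2, above 0.0521% to 0.0685% in OVX and 0.0652% to 0.0703% in Sham, and 4 of the 6 rose against OVX. B cell markers (6 of 7 on the list counted) summed to 0.00215% to 0.00332% in OVXE2, 0.0157% to 0.0230% in OVX and 0.00758% to 0.0126% in Sham, and 6 of 6 fell against OVX. The 8 immature marrow neutrophil markers summed to 0.0994% to 0.148% in OVXE2, 0.286% to 0.401% in OVX and 0.188% to 0.411% in Sham, and 8 of 8 fell. Smooth muscle and pericyte markers (3 of 7 counted) summed to 0.0844% to 0.0996% in OVXE2, at most 0.0736% in OVX and at most 0.0766% in Sham, and 1 of 3 rose. Osteoblast and osteocyte markers summed to 0.899% to 1.05% in OVXE2, at most 0.813% in OVX and at most 0.828% in Sham, and 1 of 6 rose. The marker that rose was Ibsp, which is counted again among the integrin ligands below. Epithelial markers summed to 0.113% to 0.555% in OVXE2, 0.0882% to 0.367% in OVX and 0.118% to 0.293% in Sham. These ranges overlapped, and 0 of 3 rose. Osteoclast markers (6 of 7 counted) summed to 0.695% to 0.855% in OVXE2, above 0.379% to 0.679% in OVX, and 0 of 6 rose. Their Sham range, 0.647% to 0.813%, overlapped that of OVXE2. T and NK cell markers fell for 2 of 8 and dendritic cell markers for 3 of 6, and both sums were lower in each OVXE2 library than in every other DAC library. Macrophage and monocyte markers summed to 0.0542% to 0.0762% in OVXE2 and 0.0445% to 0.0773% in OVX, and 1 of 5 fell. Neutrophil markers summed to 0.204% to 0.468% in OVXE2 and 0.331% to 0.581% in OVX, and 0 of 5 fell. For both lists the ranges overlapped, though Itgam and Itgb2 are also subunits of such cells. As a group, the OVXE2 libraries were the highest for Lama4, Lama5, Lamb2 and Lamc1 and for the endothelial, smooth muscle and osteoblast sums. Within the group this did not hold library by library. OVXE2 replicate 2 was the highest for these laminin chains but had the group's lowest smooth muscle and pericyte sum (0.0844%). The OVXE2 group was also lower than OVX for Itgal and Itgam and had the lowest B cell and immature marrow neutrophil sums. The part of cell makeup in either was not tested.

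**Figure D5:**
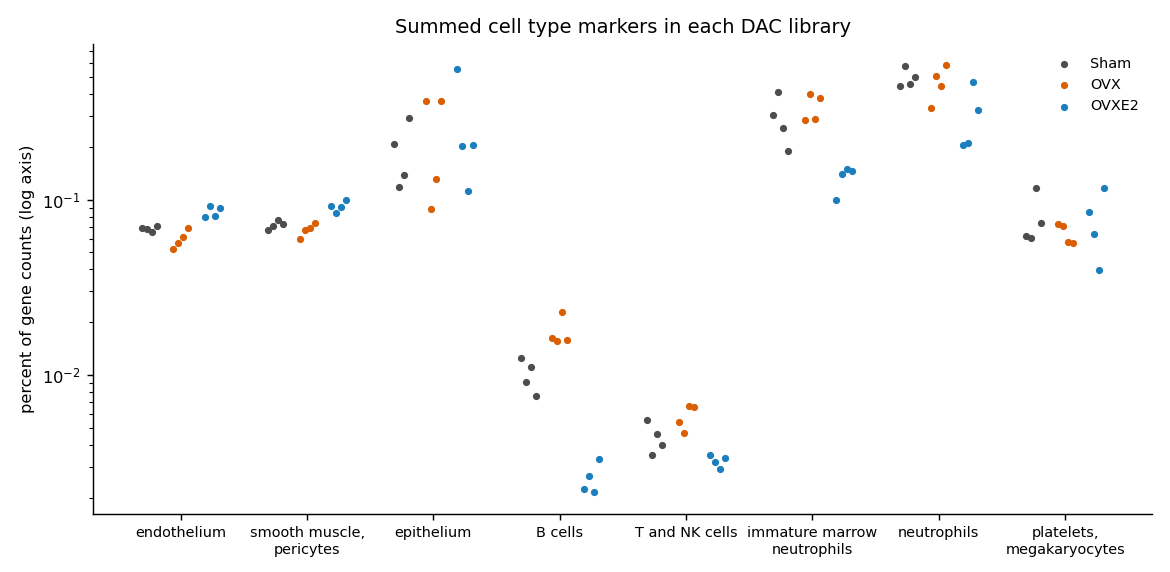
Summed marker counts of cell types in each DAC library, in percent of the library's gene counts on a log axis, by treatment group; each point is 1 library. Endothelial sums are highest in OVXE2 (0.0797% to 0.0920%), and B cell and immature marrow neutrophil sums are lowest there.

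Of 16 other basement membrane genes, 4 rose and 0 fell past edgeR's test in the same DAC comparison, against 0.676% of all genes higher and 1.45% lower. Values were above 0 for 12 of the 16, against 55.1% of all genes, and the median log2 change of the 16 was 0.30. The collagen IV chains Col4a1, at 808 ± 72.2 CPM in OVX and 1240 ± 160.5 in OVXE2, and Col4a2, at 514 ± 28.1 and 769 ± 109.7, rose by 0.62 ± 0.10 (adjusted p = 0.00728) and 0.58 ± 0.10 (adjusted p = 0.00889), and both kept the call when any 1 library was left out. Nid2, a nidogen that links laminin to collagen IV, rose by 0.53 ± 0.10 (adjusted p = 0.0191) and Col15a1 by 0.36 ± 0.08 (adjusted p = 0.0334). Without 1 library, Nid2 lost the call for OVX replicates 1, 2 and 3 and OVXE2 replicates 2, 3 and 4 (adjusted p 0.0504 to 0.0723), and Col15a1 for every library but OVXE2 replicates 1 and 3 (up to 0.123). Of 19 other integrin ligands, 3 rose and 0 fell: fibronectin (Fn1, 0.71 ± 0.13, adjusted p = 0.0163), Thbs1 (0.72 ± 0.14, adjusted p = 0.0187) and the bone sialoprotein gene Ibsp (0.64 ± 0.15, adjusted p = 0.0487). The call of Fn1 was lost without OVX replicate 3 (0.0655), that of Thbs1 without OVX replicate 2 (0.0590) or 3 (0.0693) or OVXE2 replicate 4 (0.0702), and that of Ibsp without any 1 of the 12 libraries (0.0615 to 0.149). All 7 of these calls, Col4a1 and Col4a2 among them, were lost with only the groups compared in the fit (adjusted p 0.0501 to 0.149), without the 4 DAC libraries of highest brain neuron marker share (0.0814 to 0.285) and with only the DAC libraries that had a higher share of gene counts on the other strand (0.270 to 0.551). None of 20 activators and adaptors, 3 hemidesmosome genes or 6 other laminin receptors passed edgeR's test, and the smallest p-values among them were those of Bcar1 (0.30 ± 0.08, adjusted p = 0.102) and Actn4 (0.23 ± 0.07, adjusted p = 0.154). DESeq2 called both, with adjusted p-values of 0.0232 for Bcar1 and 0.00798 for Actn4.

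Whether a treatment change differed between the tissues was tested directly, as the DAC change minus the gingiva change in 1 fit of the 24 libraries. For OVXE2 against OVX, edgeR called 0 of the 27 genes, against 0.19% of all genes. The smallest p-values were those of Lama5 (0.43 ± 0.13, adjusted p = 0.252), Itgam (-0.66 ± 0.22, adjusted p = 0.401) and Itga3 (0.39 ± 0.17, adjusted p = 0.537). For OVX against Sham and OVXE2 against Sham, 0 genes were called, against 0.0% and 0.0633%. At an unadjusted p under 0.05 there were 4, 1 and 5 genes of 27 in the 3 tests in that order, against 8.81%, 8.53% and 7.81% of all genes, and DESeq2 called 0 in each, against 0.448%, 0.0039% and 0.245% of all genes. A change in Lama5 past the test in DAC and not in gingiva was thus not shown to differ between the tissues.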

How the data were processed

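Poly(A) RNA libraries of gingiva and DAC were sequenced in paired-end mode, per the labels' protocols. Per the submitters' processing notes, fastp, STAR and DESeq2 were used with GRCm38 (mm10); versions, annotation and design: not given in the sources used here. Each deposited table holds whole-number read counts per gene and strand, as the authors left them. Counts of column 4, the strand holding most reads, were used; the other strand held 3.38% to 9.03%. Summary rows were left out.

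Counts were scaled by TMM, filtered with filterByExpr and tested with edgeR 4.0.16 (quasi-likelihood, robust; R 4.3.3) in 1 model per tissue (12 libraries, 3 groups) and 1 of both tissues (24 libraries, 6 groups), with Benjamini-Hochberg adjustment over all genes tested and a threshold of 0.05. DESeq2 1.42.0, no filter, either-strand counts, fewer groups, a replicate block and leaving out libraries were alternatives. DESeq2's shares of all genes are over 22744 genes in gingiva, 24198 in DAC and 25663 for both tissues, without the low-count filter. CPM use TMM-scaled totals; RPKM use merged exons of GENCODE M21. Replicates differed beyond counting noise (chi-square per degree of freedom 16.7 or more). The scripts were tested on simulated counts.

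Named genes are all members, with values per library for those past a treatment test, those with a 4-fold tissue difference and, where none passed, the 3 of smallest p; up to 4 genes per partner list are named. Lamb3, Itgav, Itgb3 and the genes free of overlap were added after their values were seen. The members and the partner and marker lists were chosen with earlier results of these data known. One gene of the set enters the counts over the set, and its own values are not reported here. Of 84 partner symbols, 68 were in the tables.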

Additional observations from a re-analysis of the deposited data

Results flagged for a closer look

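In 8 of 162 sets of 4 libraries (27 genes in 6 groups), 1 library stood far from the other 3, with a gap to its nearest neighbour above the critical share of the range; about 1 in 20 such sets would do so by chance. In gingiva these were Itga2b in Sham replicate 3 (21.22 CPM, others 18.8 to 19.2), Itgal in OVX replicate 1 (10.62, others 16.7 to 17.5) and Itgb2 in OVXE2 replicate 2 (28.62, others 16.8 to 17.7). In DAC they were Itga6 in Sham replicate 3 (192.1 CPM, others 154.8 to 157.0), Itgav in Sham replicate 2 (262.2, others 215 to 221), Itgam in OVX replicate 4 (58.12, others 44.4 to 46.6), Itga9 in OVXE2 replicate 2 (60.46, others 44.7 to 46.3) and Itgad in OVXE2 replicate 1 (2.179, others 3.89 to 4.17). No library was set apart for more than 1 gene.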

How the results depend on the processing

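None of the single-gene changes that were recomputed, those of a few named genes in each comparison, changed direction in an alternative; the other genes of the set were not recomputed one by one. For DAC OVXE2 against OVX, the count of called genes was 1; it was 4 with DESeq2 (2 higher, 2 lower), 0 with no low-count filter, 0 with only the groups compared, 0 without OVX replicate 1 and Sham replicate 2 (most nasal gland counts, fewest counts), 0 without the 4 DAC libraries of highest brain neuron share, 0 with only the DAC libraries of higher other-strand share, and 0 to 1 when 1 library was left out. Without the 4 brain-neuron libraries (Sham 2 and 4, OVX 1, OVXE2 2), Lama5 changed by 0.45 (adjusted p = 0.145), and with only the libraries of higher other-strand share (without Sham 4, OVX 1 and 2, OVXE2 4) by 0.41 (adjusted p = 0.397); fewer samples enter both fits. For DAC OVXE2 against Sham the count was 0 and became 2 with DESeq2 and 0 to 1 when 1 library was left out. Over all genes, DAC OVXE2 against OVX called 290 with edgeR, 594 with DESeq2, 189 with only the groups compared, 122 without the brain-neuron libraries and 39 in the libraries of higher other-strand share. For the tissue comparisons, leaving out 1 library gave 24 to 26 genes in Sham and 25 to 26 in OVX and in OVXE2. The counts for the gingiva comparisons, DAC OVX against Sham and the tests of tissue difference were 0 in every alternative, among them the gingiva libraries of higher other-strand share, an alternative added after seeing the data.

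Between the treatment groups of a tissue, same-numbered libraries did not deviate together (median correlation 0.005 over 12 pairs in DAC, 5 over 0.1, and -0.003 over 12 pairs in gingiva, 3 over 0.1). Same-numbered gingiva and DAC libraries were not compared in this way, so a pairing of the tissues was not examined. With the replicate block, DAC OVXE2 against OVX called 0 genes of the set (Lama5 adjusted p = 0.0865) and 250 of all genes.

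Depth limits Itgad, counted 0 to 4 times in gingiva. The biological coefficient of variation over all genes was 0.305 in DAC and 0.164 in gingiva, with 4 libraries a group. Protein was not measured.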

Other observations

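Within the estradiol-treated DAC group, different genes of the set peaked in different libraries. Itgb3 (524 CPM, others 266 to 315), Itgav (363, others 213 to 274) and Lamc1 (405, others 298 to 349) were highest in OVXE2 replicate 2, whose summed osteoclast markers (0.781% of counts) lay inside the group's range of 0.695% to 0.855%. That library had the group's highest endothelial (0.0920%) and fibroblast (10.8%) sums. Its macrophage and monocyte (0.0542%) and smooth muscle and pericyte (0.0844%) sums were the group's lowest. The part of cell makeup was not tested. Lamb3 (144 CPM) and Itga3 (64.1) were highest in OVXE2 replicate 4, while the summed epithelial markers were highest in OVXE2 replicate 1 (0.555%, against 0.204% in replicate 4). These are values of single libraries and were chosen after they were seen.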
